A study of Mus musculus with 27 samples.

Results

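The 32 genes described here make, regulate or move cholesterol and fatty acids, and they were taken from a named list of enzymes, regulators and transporters among the 30735 genes of the deposited table. Each was found once by its symbol, and the values of its transcripts were summed. 17 encode enzymes of sterol synthesis, 9 encode enzymes of fatty acid synthesis, elongation and desaturation, and 6 encode regulators or carriers of sterol. Values are TPM, a relative abundance corrected for transcript length, as the authors deposited them.

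RNA was sequenced from B cells of mice purified by B220, a surface form of CD45 carried by B cells. The lymphoma group holds 19 malignant B-cell samples, 12 from lung, 4 from mesenteric and 3 from peripheral lymph nodes. 7 are labelled hv, 7 cr and 4 co, and 1 lung sample is titled hv and described as CO. The LPS group holds 4 samples of non-malignant spleen B cells, 1 each from wt, cr, co and hv mice, treated for 2 days with lipopolysaccharide, a molecule of the outer bacterial membrane that makes B cells divide. The resting group holds 4 spleen samples of the same genotypes without treatment. The labels describe all lymphoma, hv, cr and co animals as mice with a c-myc transgene at Igh, the immunoglobulin heavy chain locus, and only the wt samples, 1 in each of the LPS and resting groups, lack that description. They do not say what hv, cr and co stand for, nor give age, strain or the culture time of the resting cells.

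Cholesterol is built from acetyl-CoA through the mevalonate pathway to squalene, lanosterol and then cholesterol, while fatty acids are built by acetyl-CoA carboxylase and fatty acid synthase and then elongated and desaturated. Both branches are controlled by SREBP transcription factors, which are held in the endoplasmic reticulum by INSIG proteins when sterol is plentiful and are released to the nucleus when it is scarce. LXR receptors, activated by oxysterols, drive the sterol exporters. Dividing lymphocytes need both products for new membranes.

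The libraries held about 11531400 to 32032600 read pairs, recovered from the low TPM values. Gm10800, a predicted gene, took 3.08% of TPM in a mesenteric node lymphoma (cr T6), 18.6% in LPS cr cells, 2.70% in LPS hv cells and 3.65% in resting wt cells, and under 1% elsewhere. Fits without the libraries over 1% Gm10800 leave out these samples, so their LPS group is only wt and co and their resting group cr, co and hv. Gm20594, another predicted gene, took 13.7 to 34.3% in lymphomas, 10.9 to 16.3% in LPS samples and 17.2 to 19.7% in resting samples. Its highest share was in mesenteric node cr T35. Haemoglobin genes took at most 0.220% in lymphoma and LPS samples and 1.15 to 10.99% in resting samples. 8 of 8 erythroid markers were called lower in lymphoma and in LPS than in resting samples, beside 17.4% and 33% of all genes tested. The part of red-cell RNA in the results against resting samples was not tested. Summed B-cell markers were 1153 to 3631 TPM in lymphomas, 969 to 1931 TPM after LPS and 2470 to 4533 TPM in resting samples. Summed macrophage markers (8 genes) were 6.70 to 139.0 TPM in lymphomas, 5.10 to 18.2 TPM after LPS and 136 to 909 TPM in resting samples. Of 4 plasma cell markers, 3 were called higher in LPS than in resting samples, beside 25.2% of all genes tested. The 5 adipocyte markers summed to at most 0.584 TPM in any sample. In such bulk samples, fewer cells of a type and less RNA per cell cannot be told apart.

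Nearly the whole sterol pathway was higher after LPS. Of its 17 genes, 16 were higher in LPS than in resting samples, none lower, with a median log2 fold change of 2.04 against -0.16 over all genes tested. The background was broad: 58.2% of the 11999 genes tested passed an adjusted p of 0.05 (limma, Benjamini-Hochberg), 25.2% higher and 33% lower in LPS. All 32 genes passed the filter on low values; 25 were higher, 2 lower and 5 not called, and for 27 the 4 LPS samples did not overlap the 4 resting samples, as for 52.3% of all genes tested. Treatment and time in culture cannot be told apart. Within each group the 4 samples differ in genotype, so they came from different mice. The p-values cover sample-to-sample spread, in which genotype, mouse and technical differences cannot be told apart. The labels leave it unsaid whether the LPS and resting samples of a genotype share a mouse, or whether each lymphoma came from another mouse.

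Hmgcs1, the synthase that opens the mevalonate pathway, reached 180 TPM in LPS wt, 63.8 in LPS cr, 127 in LPS co and 118 in LPS hv cells, against 17.4, 16.5, 20.5 and 16.5 TPM in resting wt, cr, co and hv cells. Every LPS sample lay above every resting sample, and the log2 fold change was 2.63 ± 0.27 (SE; adjusted p = 8.79e-06, limma). Fdps, which makes farnesyl diphosphate, had 417, 116, 239 and 208 TPM in LPS wt, cr, co and hv cells, against 19.2, 26.7, 29.9 and 23.6 TPM in the same resting order. It had the largest sterol change, 3.12 ± 0.34 on the log2 scale (SE; limma adjusted p = 3.49e-05), with no overlap. Sqle, the squalene epoxidase that commits squalene to sterols, had 99.5, 56.6, 84.3 and 77.8 TPM in LPS wt, cr, co and hv cells, against 10.8, 11.7, 13.6 and 10.2 TPM in resting ones. Its log2 fold change was 2.66 ± 0.20 (SE; limma adjusted p = 7.94e-07), again with the groups apart.

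The other called sterol genes fell into a strong and a weaker tier. Idi1, the isomerase that makes the second isoprenoid building block, rose by 2.74 on the log2 scale. Msmo1 and Cyp51, which remove methyl groups from lanosterol and its products, rose by 2.40 and 2.08, and Lss, which closes the rings of lanosterol, by 2.33. Mvd and Fdft1, the decarboxylase of mevalonate diphosphate and the squalene synthase, rose by 2.18 and 2.04. Smaller log2 changes were called for Nsdhl (1.35), Mvk (1.30), Hsd17b7 (1.30), Sc5d (1.27), Pmvk (1.07), Dhcr7 (0.89) and Ebp (0.76); Mvk and Pmvk are kinases of the mevalonate steps, and the rest act late on the sterol rings. Tm7sf2, a sterol reductase, averaged 8.96 ± 4.39 TPM in LPS and 5.05 ± 1.34 TPM in resting samples (SD, n = 4 each) and missed the threshold (log2 0.66 ± 0.28 SE, limma adjusted p = 0.0574). It passed without LPS cr (0.0298), without resting co (0.0422) and without the libraries over 1% Gm10800 (0.0469).

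**Figure D1:**
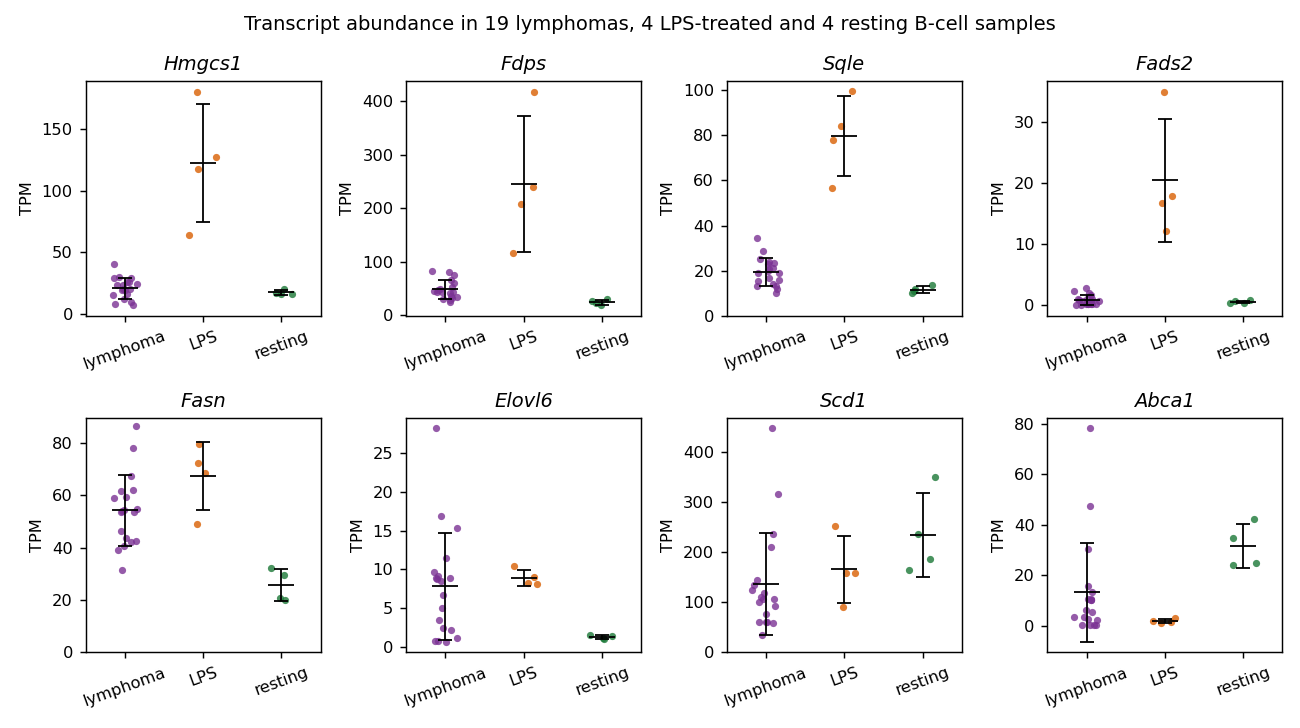
TPM of 8 genes in each sample (points) with the mean and SD (bars) in 19 lymphomas, 4 LPS and 4 resting samples; each panel has its own linear axis. Hmgcs1, Fdps, Sqle and Fads2 were highest in the 4 LPS samples, Fasn was above most resting values in both other groups, and Abca1 ranged most widely among lymphomas.

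The promoters of these genes were searched for the letters TCACNCCAC, a form of the sterol regulatory element bound by SREBPs, and CCAAT, the box bound by NF-Y, a factor known to act with SREBPs, on both strands from 250 bases before to 50 bases after each RefSeq start (build GRCm38.p6). Of the 32 genes, 24 had an entry. The only Acaca entry, chr11:84195188-84195487, lies inside the gene, whose deposited transcripts begin at 84129672. The sequence before that first start was not searched. CCAAT was present in 14 of 14 sterol genes, 3 of 6 fatty acid genes and 3 of 4 regulators or carriers with an entry, and in 41.1% of all 27025 genes with a promoter in the table (37.4% of 32851 promoters). A gene was counted if any of its starts had a match. Dhcr7 matched only at start 3 of 3 and Pmvk only at start 1 of 2. That Pmvk start, chr3:89454291-89454590, lies ahead of its deposited transcripts, which begin at 89459118. TCACNCCAC was present in Hmgcs1 alone among the 24, and in 1.44% of all genes. No match of 1 motif overlapped a match of the other in these genes, while the run CCAATTGG in Fasn reads as CCAAT on both strands and counts for each. Shown as examples of each role are the sterol genes Hmgcs1 at chr13:119690101-119690400 (plus strand), Idi1 at chr13:8885356-8885655 (plus strand) and Msmo1 at chr8:64733529-64733828 (minus strand), the fatty acid gene Fasn at chr11:120824498-120824797 (minus strand), and the exporter gene Abca1 at chr4:53159846-53160145 (minus strand), which has no match. Each runs 5′ to 3′ on the strand of the gene, and capitals mark the motif matches (ATTGG is CCAAT on the other strand). A match is a description of letters, not of binding.
Hmgcs1: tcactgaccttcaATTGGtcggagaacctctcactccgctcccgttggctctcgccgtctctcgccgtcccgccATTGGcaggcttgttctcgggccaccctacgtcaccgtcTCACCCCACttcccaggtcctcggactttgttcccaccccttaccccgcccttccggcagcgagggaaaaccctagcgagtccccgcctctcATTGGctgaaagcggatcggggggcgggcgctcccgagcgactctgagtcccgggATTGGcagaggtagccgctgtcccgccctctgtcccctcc
Idi1: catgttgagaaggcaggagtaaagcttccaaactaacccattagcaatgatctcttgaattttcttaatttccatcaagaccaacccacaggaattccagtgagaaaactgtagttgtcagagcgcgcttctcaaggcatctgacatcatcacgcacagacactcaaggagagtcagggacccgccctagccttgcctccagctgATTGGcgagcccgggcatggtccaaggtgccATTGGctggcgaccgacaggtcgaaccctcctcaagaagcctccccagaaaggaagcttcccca
Msmo1: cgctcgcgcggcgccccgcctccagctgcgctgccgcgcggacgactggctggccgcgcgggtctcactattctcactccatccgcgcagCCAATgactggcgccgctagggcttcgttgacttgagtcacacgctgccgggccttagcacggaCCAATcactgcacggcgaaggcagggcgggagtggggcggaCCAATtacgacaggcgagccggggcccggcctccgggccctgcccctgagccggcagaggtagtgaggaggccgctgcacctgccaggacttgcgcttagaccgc
Fasn: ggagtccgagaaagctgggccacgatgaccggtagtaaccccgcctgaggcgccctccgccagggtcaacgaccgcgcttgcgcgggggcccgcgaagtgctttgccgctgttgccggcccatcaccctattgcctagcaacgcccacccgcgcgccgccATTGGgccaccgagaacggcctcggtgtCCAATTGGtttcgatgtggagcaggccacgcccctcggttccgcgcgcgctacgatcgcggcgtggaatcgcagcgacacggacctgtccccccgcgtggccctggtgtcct
Abca1: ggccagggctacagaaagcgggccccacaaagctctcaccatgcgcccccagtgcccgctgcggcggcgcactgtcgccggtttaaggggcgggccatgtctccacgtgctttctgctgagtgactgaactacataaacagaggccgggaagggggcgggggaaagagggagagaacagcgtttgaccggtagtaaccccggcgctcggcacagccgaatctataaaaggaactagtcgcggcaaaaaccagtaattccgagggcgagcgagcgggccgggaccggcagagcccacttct

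**Figure D2:**
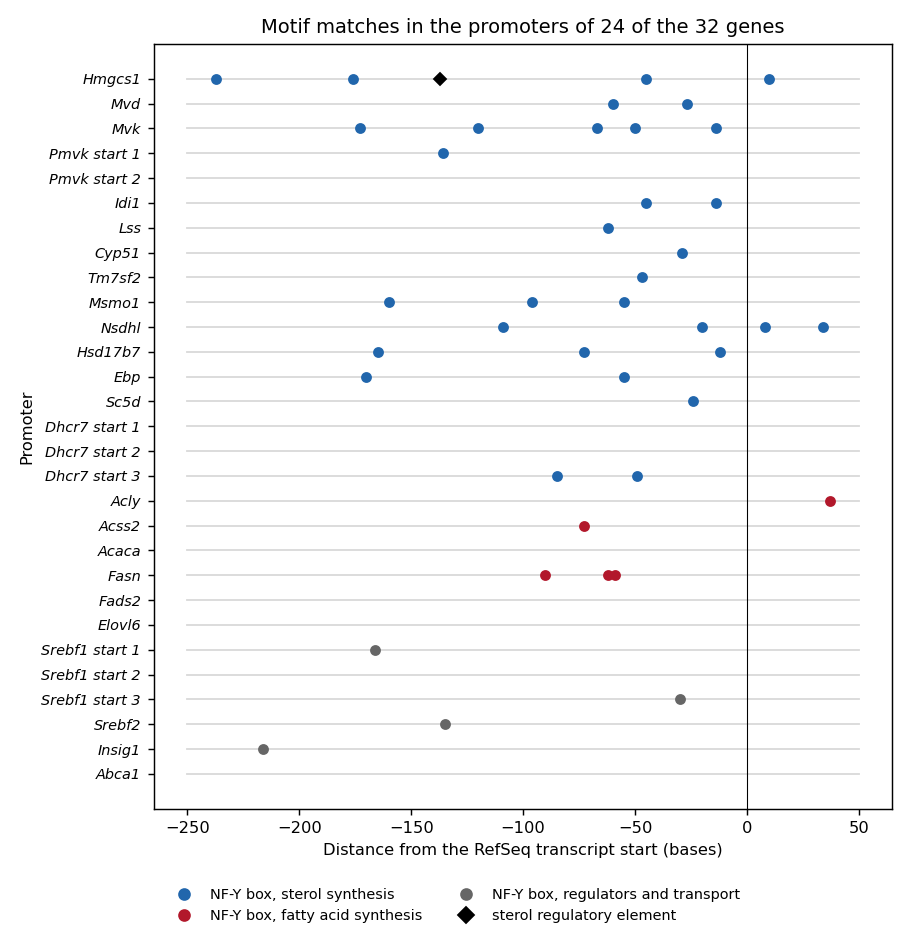
Position of each CCAAT match (circles, coloured by branch) and of the 1 sterol regulatory element match (diamond) relative to the RefSeq transcript start, in bases, for each promoter of the 24 genes with an entry. All 14 sterol genes have at least 1 CCAAT match at 1 of their starts. The entries of Acaca, Fads2, Elovl6 and Abca1 have none, and that of Acaca is a start inside the gene.

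Most fatty acid genes were also higher after LPS. 7 of 9 genes were higher in LPS than in resting samples and none was lower, beside 25.2% higher and 33% lower over all genes. Their median log2 fold change was 1.36 against -0.16 over all genes tested. Fads2, a desaturase that starts the conversion of essential fatty acids to long polyunsaturated ones, had 35, 12.1, 17.9 and 16.7 TPM in LPS wt, cr, co and hv cells, against 0.343, 0.281, 0.565 and 0.719 TPM in resting ones. It was under 1 TPM in every resting sample and passed the filter through the LPS samples alone, so its call, 1 of the 7, is a description only. Its log2 fold change was 3.77 with a pseudocount of 1 and 5.11 with 0.1. The desaturase gene Fads1, also on chromosome 19, averaged 15.9 ± 1.7 TPM in LPS and 3.18 ± 1.91 TPM in resting samples (SD, n = 4 each), a log2 fold change of 2.13.

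Fasn, the fatty acid synthase, had 79.4, 49.0, 68.3 and 72.4 TPM in LPS wt, cr, co and hv cells, against 20.1, 29.6, 32.3 and 21.0 TPM in resting ones. The groups stood apart, with a log2 fold change of 1.36 ± 0.21 (SE; limma adjusted p = 0.000169). Acaca, the acetyl-CoA carboxylase, rose by 1.16 and Acly, which makes cytosolic acetyl-CoA from citrate, by 1.03 on the log2 scale. Elovl6, which elongates palmitate, rose by 2.12.

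The genes of the stearoyl-CoA desaturases lie close together on GRCm38, Scd1 at chr19:44394451-44407709 (minus strand) and Scd2 at chr19:44293676-44306864 (plus strand). Scd2 had 233, 106, 158 and 153 TPM in LPS wt, cr, co and hv cells, against 20.9, 46.5, 44.6 and 39.9 TPM in resting ones, a log2 fold change of 2.08 ± 0.29 (SE; limma adjusted p = 0.000113). Scd1 had 253, 91.8, 159 and 159 TPM in LPS wt, cr, co and hv cells, against 351, 164, 237 and 186 TPM in resting ones. Its groups overlapped and it was not called (log2 -0.52 ± 0.32 SE, limma adjusted p = 0.181), but passed as lower without LPS wt (log2 -0.76, adjusted p = 0.0431, limma). It was lower in the LPS than in the resting sample of each of the 4 genotypes, by log2 differences of -0.83 to -0.22. The difference between Scd1 and Scd2 was not tested. Acss2, which makes acetyl-CoA from acetate, averaged 4.15 ± 1.73 TPM in LPS and 4.64 ± 1.15 TPM in resting samples (SD, n = 4 each; limma adjusted p = 0.60).

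Among regulators and carriers, the sterol exporters fell steeply. Abca1, which passes cholesterol to apolipoproteins, had 1.04, 1.49, 2.05 and 2.90 TPM in LPS wt, cr, co and hv cells, against 42.3, 25.0, 34.9 and 24.3 TPM in resting ones. Its partner Abcg1 had 4.98, 3.21, 2.20 and 2.99 TPM in LPS wt, cr, co and hv cells, against 40.0, 45.6, 28.0 and 30.6 TPM in resting ones. Neither overlapped between groups, and the log2 fold changes were -3.51 ± 0.24 and -3.10 ± 0.23 (SE; limma adjusted p = 5.4e-07 and 7.45e-07). Macrophages also express both exporters, and macrophage markers were lower after LPS (7 of 8 called lower, beside 33% of all genes tested). C1qa was at most 0.490 TPM in LPS and 29.3 to 231.5 TPM in resting samples. The part of macrophages in this fall was not tested.

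Insig1, the SREBP-retaining protein that is itself an SREBP target, had 130.4, 57.4, 79.2 and 86.5 TPM in LPS wt, cr, co and hv cells, against 33.7, 29.2, 34.01 and 28.4 TPM in resting ones (log2 1.41 ± 0.23 SE, limma adjusted p = 0.000202). Stard4, a soluble sterol carrier, rose by 1.47. The genes of the SREBP factors themselves were not called: Srebf1 averaged 39.7 ± 15.1 TPM in LPS and 29.5 ± 5.0 TPM in resting samples, and Srebf2 averaged 37.2 ± 11.2 TPM in LPS and 29.4 ± 7.9 TPM in resting samples (SD, n = 4 each; limma adjusted p = 0.211 and 0.263). With median-of-ratios scaling, which moved the median of all genes from -0.16 to 0.03 and the share of calls that were higher from 43.3% to 53.9%, both passed (adjusted p = 0.0371 and 0.0279, limma). Srebf1 also passed without the libraries over 1% Gm10800 (log2 0.69 in place of 0.36, adjusted p = 0.0487, limma). Rescaling TPM without Gm10800, Gm20594 and haemoglobin genes moved that median to -0.30 and that share to 36.4%.

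**Figure D3:**
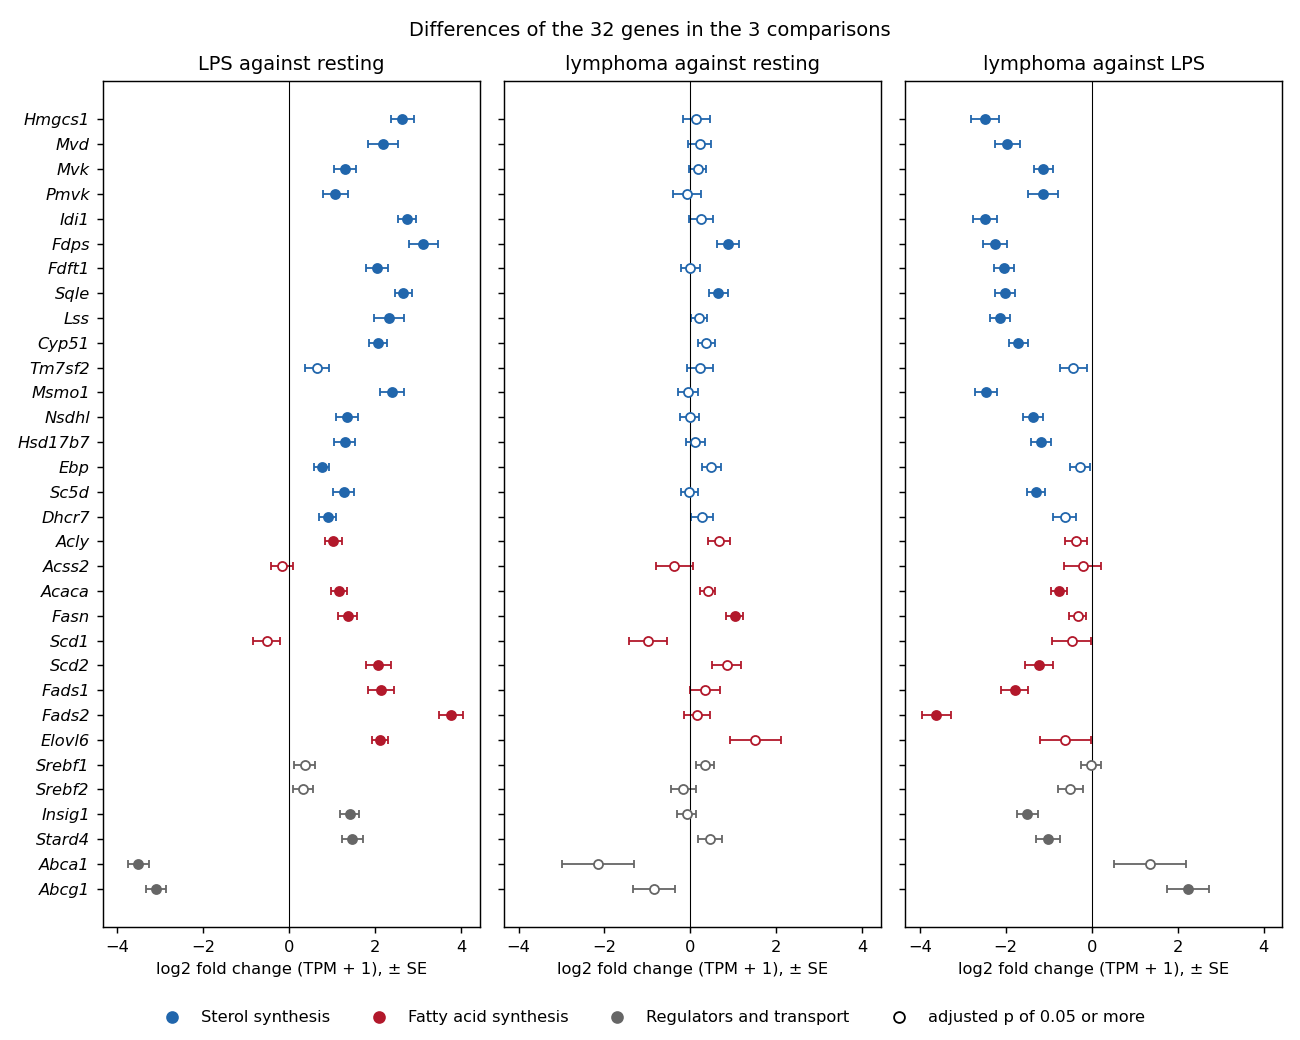
Log2 fold change of TPM + 1 with its SE for the 32 genes in LPS against resting (left), lymphoma against resting (middle) and lymphoma against LPS (right), coloured by branch on a common axis; filled points passed an adjusted p of 0.05. Sterol genes lie right of 0 in LPS against resting, near 0 in lymphoma against resting and left of 0 in lymphoma against LPS.

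The difference between LPS and resting cells was present in each genotype but varied in size. The wt sample was the highest of the 4 LPS samples for 17 of 17 sterol genes, and the cr sample, which carries 18.6% Gm10800, was the lowest for 17 of 17. After median-of-ratios scaling these counts were 17 and 16. Over all 32 genes, without that scaling, wt was the highest LPS sample for 30 and cr the lowest for 29. The share over all genes tested was not counted, so this order is not shown to be particular to sterol genes. The median log2 difference of the sterol genes between the LPS and the resting sample of a genotype was 2.54 in wt, 1.85 in hv, 1.20 in cr and 1.92 in co. 16 of the 17 were higher after LPS in all 4 genotypes, a count also made without the share over all genes tested. With 1 sample per genotype and treatment, these differences have no replicate check. Without both wt samples, an alternative added after the data were seen, 16 sterol genes were still called higher.

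The lymphomas did not show this pattern against resting cells. Of the 32 genes, 3 were higher in lymphoma than in resting samples, none lower and 29 not called, beside 31.9% of 13239 genes tested over the whole table, 14.5% higher and 17.4% lower in lymphoma. For none of the 32 did the 19 lymphomas and the 4 resting samples stay apart, against 8.91% of all genes tested. The median log2 fold change was 0.20 over sterol genes and 0.41 over fatty acid genes, against -0.06 over all genes. Rescaling without Gm10800, Gm20594 and haemoglobin genes moved the median of all genes to -0.20 and the share of calls that were higher from 45.4% to 31.9%, and with median-of-ratios scaling that share was 50.6%. Malignancy and tissue cannot be told apart here, since all resting and LPS cells came from spleen.

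Fasn was 31.3 TPM in the lowest, 54.1 in the median and 86.2 in the highest lymphoma, against 20.1, 29.6, 32.3 and 21.0 TPM in resting wt, cr, co and hv cells. 18 of 19 lymphomas lay above the resting range, and the log2 fold change was 1.04 ± 0.20 (SE; limma adjusted p = 0.000267). Fdps was 25.7 TPM in the lowest, 44.2 in the median and 83.2 in the highest lymphoma, against 19.2, 26.7, 29.9 and 23.6 TPM in resting cells. 17 of 19 lymphomas lay above that range (log2 0.88 ± 0.25 SE, limma adjusted p = 0.00888).

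Sqle was 9.94 TPM in the lowest, 18.9 in the median and 34.3 in the highest lymphoma, against 10.8, 11.7, 13.6 and 10.2 TPM in resting cells, with 15 of 19 lymphomas above the resting range (log2 0.65 ± 0.22 SE, limma adjusted p = 0.0299). The Sqle call lies nearer the threshold than that of Fdps, and both were lost in some settings. Without resting wt, Fdps had a log2 fold change of 0.76 (limma adjusted p = 0.0567) and Sqle of 0.62 (0.0932), and without the libraries over 1% Gm10800 Fdps had 0.77 (0.061) and Sqle 0.62 (0.0985). Sqle also missed the threshold without resting cr (log2 0.65, 0.0698) or resting hv (0.60, 0.0942), with lymph node lymphomas only (0.0759), and after rescaling without Gm10800, Gm20594 and haemoglobin genes (0.0637).

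Hmgcs1 was 7.53 TPM in the lowest, 20.3 in the median and 40.6 in the highest lymphoma, against 17.4, 16.5, 20.5 and 16.5 TPM in resting cells. 9 lymphomas lay above the resting range, 4 within and 6 below, and the log2 fold change of 0.14 ± 0.30 (SE) was not called (limma adjusted p = 0.749). The other 14 sterol genes had log2 fold changes from -0.07 (Pmvk) to 0.49 (Ebp), none of them called.

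4 genes narrowly missed the threshold in this comparison. Acly had a log2 fold change of 0.67 (adjusted p = 0.0502, limma), Abca1 of -2.14 (0.0522), Elovl6 of 1.51 (0.0538) and Scd2 of 0.85 (0.0545). With median-of-ratios scaling Acly, Scd2 and Abca1 passed, and Acaca and Ebp with them. Scd1 had a log2 fold change of -0.99 ± 0.44 (SE; limma adjusted p = 0.0895), with 15 of 19 lymphomas below the resting range and 1 above. Scd2 had 13 of 19 above it and none below. Insig1 (-0.09), Stard4 (0.45) and Abcg1 (-0.85) were not called either. 6 of 8 macrophage markers were called lower in lymphoma than in resting samples, beside 17.4% of all genes tested.

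Set against LPS-treated cells, the lymphomas were lower across the sterol pathway. 20 of the 32 genes were lower in lymphoma than in LPS samples, 1 higher and 11 not called, beside 13.8% of 12880 genes tested, 5.27% higher and 8.56% lower in lymphoma. For 14 of the 32 the 19 lymphomas and the 4 LPS samples did not overlap, against 3.34% of all genes tested. 14 of 17 sterol genes fell, with a median log2 fold change of -1.70 against 0.03 over all genes, and 4 of 9 fatty acid genes fell, with a median of -0.61.

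Hmgcs1, with the lymphoma and LPS values given above, was lower in every lymphoma than in any LPS sample (log2 -2.49 ± 0.32 SE, limma adjusted p = 7.18e-06). The same held for Idi1 (log2 -2.48), Msmo1 (-2.46), Fdps (-2.25), Lss (-2.13), Fdft1 (-2.04), Sqle (-2.01), Mvd (-1.96), Cyp51 (-1.70), Nsdhl (-1.37), Sc5d (-1.30) and Hsd17b7 (-1.18). Mvk (-1.13) and Pmvk (-1.14) were called lower with overlapping groups. Tm7sf2 (-0.43), Ebp (-0.27) and Dhcr7 (-0.62) were not called.

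Fads2 was listed at 0 in 2 lymphomas, with a median of 0.649 and a highest value of 2.79 TPM, against 35, 12.1, 17.9 and 16.7 TPM in LPS wt, cr, co and hv cells. No lymphoma came near the LPS range (log2 -3.61 ± 0.33 SE, limma adjusted p = 4.02e-08). Fads1 (log2 -1.79), Scd2 (-1.23) and Acaca (-0.75) were also lower. Fasn (-0.33), Acly (-0.37), Elovl6 (-0.61), Scd1 (-0.47) and Acss2 (-0.21) were not called.

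Insig1 was 16.8 TPM in the lowest, 29.5 in the median and 53.7 in the highest lymphoma, against 130.4, 57.4, 79.2 and 86.5 TPM in LPS wt, cr, co and hv cells, with no overlap (log2 -1.50 ± 0.24 SE, limma adjusted p = 0.000136). Stard4 was lower by a log2 fold change of -1.02, and Srebf1 (-0.02) and Srebf2 (-0.49) were not called. Pmvk, Scd2 and Stard4 each lost the call without LPS wt, without LPS co or without LPS hv (limma adjusted p between 0.0523 and 0.182), and without the libraries over 1% Gm10800 (0.0877, 0.0782 and 0.0554). Their log2 fold changes were smaller without LPS wt (-0.84, -1.04 and -0.83), about the same without LPS co (-1.17, -1.22 and -0.99) or hv (-1.19, -1.24 and -1.03), and larger without those libraries (-1.54, -1.50 and -1.35). Abcg1 was the only gene of the 32 called higher in lymphoma than in LPS samples, at 4.84 TPM in the lowest, 15.5 in the median and 85.9 in the highest lymphoma against 4.98, 3.21, 2.20 and 2.99 TPM in LPS cells. 18 of 19 lymphomas lay above the LPS range (log2 2.25 ± 0.49 SE, limma adjusted p = 0.00265), and without the libraries over 1% Gm10800 the fold change was 2.23 with an adjusted p of 0.0883 (limma). That setting keeps only wt and co in the LPS group, so a lost call there can also follow from the smaller group. Abca1 had a log2 fold change of 1.37 and was not called (limma adjusted p = 0.297). Of 8 macrophage markers, 4 were called higher in lymphoma than in LPS samples, beside 5.27% of all genes tested. C1qa was 0.342 to 21.5 TPM in lymphomas and at most 0.490 TPM in LPS samples. The part of macrophages in the Abcg1 values was not tested.

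The sterol and fatty acid branches moved by different amounts. With each gene's log2(TPM + 1) set against its resting mean and averaged over a branch, the LPS samples were 1.18 to 2.47 for sterol and 1.02 to 1.85 for fatty acid genes, and the sterol mean was the higher in all 4, by 0.16 to 0.61. Among lymphomas the sterol mean was -0.28 to 0.69 and the fatty acid mean -0.10 to 1.15, and the difference between branches ran from -0.72 to 0.39 with a median of -0.24. In resting samples that difference was -0.10 to 0.10. In medians over genes, the sterol branch exceeded the fatty acid branch by 0.68 in LPS against resting, was below it by a difference of -0.21 in lymphoma against resting and of -1.09 in lymphoma against LPS. In lymphoma against resting, leaving out 1 resting sample at a time gave -0.45 (without hv) to -0.23 in place of -0.21. These comparisons share samples, and the branch values are descriptions with no test.

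**Figure D4:**
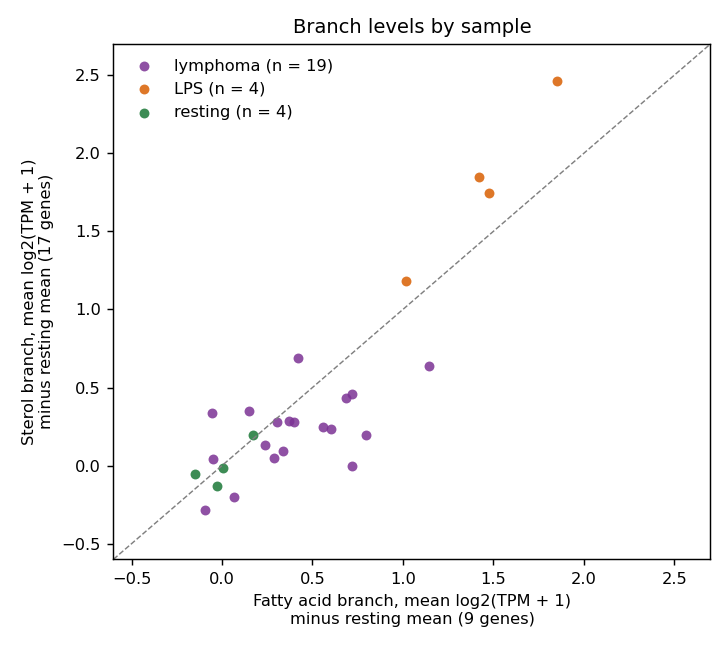
Mean log2(TPM + 1) of the 17 sterol genes (vertical) against that of the 9 fatty acid genes (horizontal), each minus its resting mean, for every sample; the dashed line marks equal values. The 4 LPS samples lie above the line and beyond all lymphomas on the vertical axis, while most lymphomas lie below it.

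The lymphomas differed among themselves most in the exporters and in chain elongation. Over 19 lymphomas the SD of log2(TPM + 1) had a median of 0.43 over sterol genes and 0.63 over fatty acid genes, against 0.51 over all 12654 genes tested. Abca1 was 0.198 TPM in the lowest (mesenteric node cr T20), 6.23 in the median and 78.2 in the highest lymphoma (lung T39, the sample with conflicting labels), an SD at the 97.3rd percentile of all genes. Elovl6 was 0.666 TPM in the lowest (lung co T30), 8.48 in the median and 28.2 in the highest lymphoma (lung co T9), at the 92.4th percentile. Scd1 was 34.4 TPM in the lowest, 107.6 in the median and 449 in the highest lymphoma, and Acss2 ran from 0.528 to 13.9 TPM. Acaca (0.32), Lss (0.33), Mvk (0.34), Sc5d (0.34) and Fasn (0.35) had the smallest SDs among the 32.

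**Figure D5:**
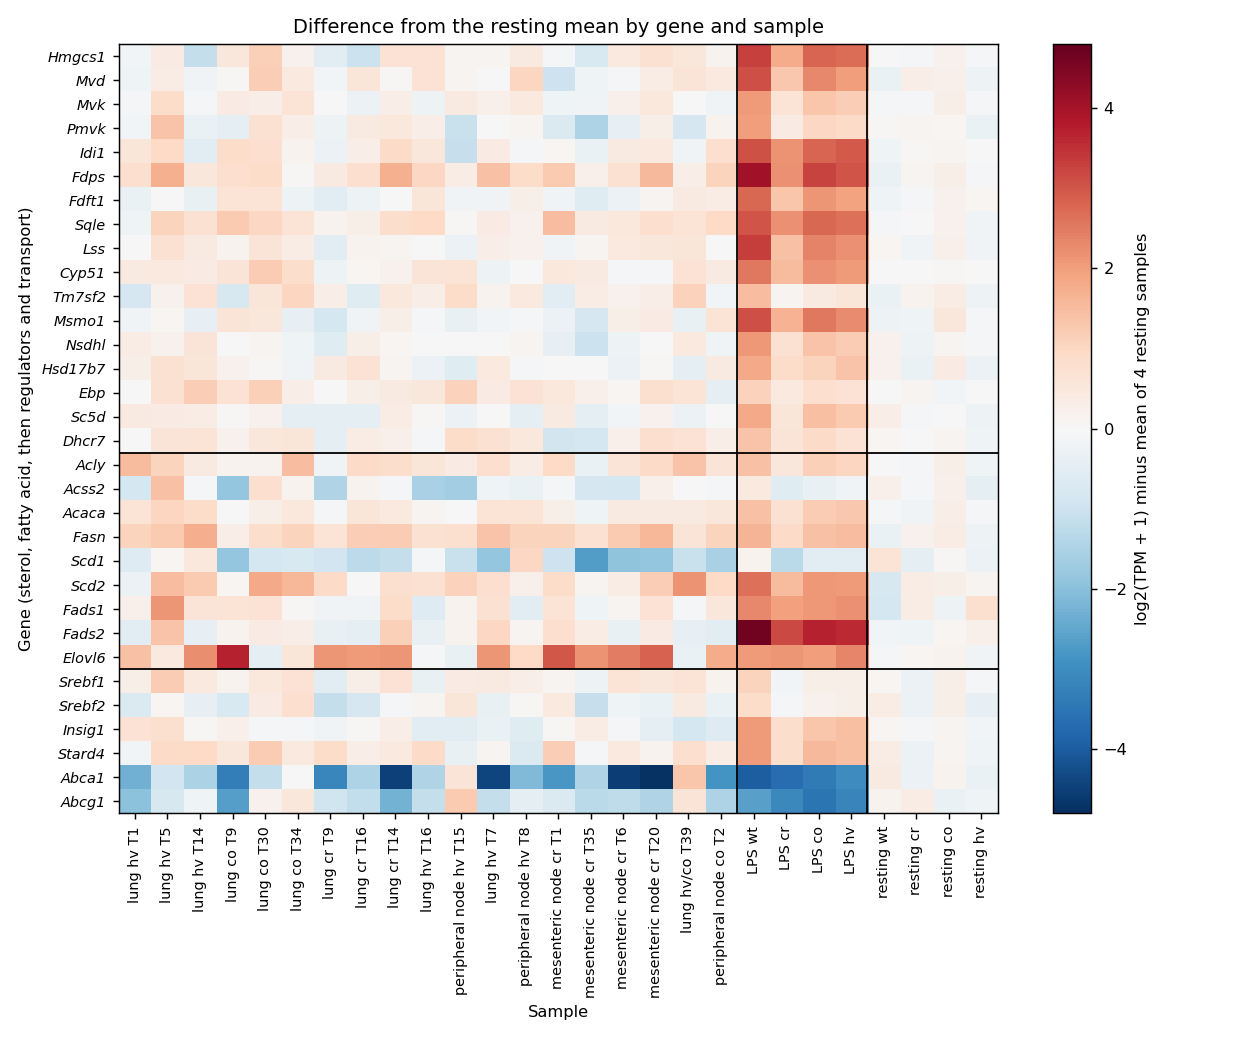
Difference of log2(TPM + 1) from the mean of the 4 resting samples for the 32 genes (rows, in 3 blocks by role) in 19 lymphomas, 4 LPS and 4 resting samples (columns); red is higher and blue lower. The sterol block is red in the 4 LPS columns and pale in the lymphomas, where Elovl6, Abca1 and Abcg1 vary most.

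Across the lymphomas, Abca1 and Abcg1 varied together (Pearson r 0.76, Spearman rho 0.73, n = 19) and Elovl6 ran against both (r -0.76 with Abca1 and -0.71 with Abcg1). These pairs were picked after their values were seen and carry no p. Abca1 also correlated with the macrophage markers C1qa (r 0.61), Csf1r (0.62) and Adgre1 (0.69) in the same libraries. For Abcg1 these values were 0.41, 0.41 and 0.64. The part of macrophages in the exporter values was not tested. Of 12 listed pairs tested by permutation (100000 resamples, two-sided, Benjamini-Hochberg over 12), Fasn with Acaca passed (r 0.73, rho 0.69, adjusted p = 0.00444 and 0.0192), and r was 0.65 without the 2 samples farthest from the median. It was 0.85 in the 9 lymphomas with joined sample names and 0.60 in the 10 with separated ones. The other 11 did not pass: Hmgcs1 with Srebf2 had r 0.53 and with Idi1 r 0.51 (adjusted p = 0.0998 for each by permutation). Fasn had r 0.48 with Srebf1 and 0.46 with the division marker Mki67 (adjusted p = 0.111 for each by permutation).

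Lines and sites of the lymphomas were compared for the same genes. All mesenteric node lymphomas are cr, and all node lymphomas have separated sample names. Site is thus partly tied to line and to style of sample name. In 1 limma fit with line and site on 18 lymphomas, none of the 32 genes was called in cr against hv, co against hv, co against cr or lymph node against lung. Over all 12480 genes tested the calls were 0%, 0%, 0.00801% and 0.016% in that order, with 1140, 429, 961 and 721 genes at an unadjusted p under 0.05. Of the 32, unadjusted p-values under 0.05 were found for Scd1 (log2 -1.16) and Elovl6 (1.43) in cr against hv, Cyp51 (0.67) and Fdft1 (0.62) in co against cr, and Stard4 (-0.53) in node against lung. The smallest adjusted p of the 32 in these 4 contrasts was 0.546.

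Other lists of lipid genes are given beside the shares called over all genes. Of 24 tested genes of sterol handling and SREBP control, 8 were higher and 8 lower in LPS than in resting samples, close to the 25.2% higher and 33% lower over all genes. They were led by Tmem97 (log2 3.58), a sterol-responsive membrane protein, Acat2 (2.70), a thiolase that feeds the mevalonate pathway, and Nr1h3 (-2.63), which encodes an LXR. Nr1h3 reached 1 TPM in 1 LPS and 4 resting samples, so it entered this comparison through the resting samples and its call is a description. Tmem97 averaged 95.4 ± 16.1 TPM in LPS and 7.13 ± 1.86 TPM in resting samples (SD, n = 4 each; limma adjusted p = 1.92e-07). In lymphoma against resting samples 4 were higher and 5 lower (14.5% and 17.4% over all genes), led by Tmem97 (1.99), Nr1h3 (-1.66) and the cholesterol esterifying enzyme gene Soat1 (-1.28). In lymphoma against LPS samples 3 were higher and 5 lower (5.27% and 8.56% over all genes), led by Acat2 (-1.95), Tmem97 (-1.59) and Mylip (1.52), an LXR target that degrades lipoprotein receptors.

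Of fatty acid and lipid assembly genes, 14 of 24 were higher and 6 lower in LPS than in resting samples, beside 25.2% and 33% over all genes, led by Lpin2 (-2.20), Agpat5 (2.05) and Acsl3 (1.62), which act in glycerolipid assembly and fatty acid activation. In lymphoma against resting samples 6 of 25 were higher and 5 lower (14.5% and 17.4% over all genes), led by Acacb (1.97), an acetyl-CoA carboxylase of the mitochondrial surface, Lpin2 (-1.89) and Acsl1 (-1.79). In lymphoma against LPS samples 2 of 25 were higher and 8 lower (5.27% and 8.56% over all genes), led by Acacb (1.73), Lpin1 (-1.53) and Acsl3 (-1.49). Acacb reached 1 TPM in 17 lymphomas and in no LPS or resting sample, so it entered both comparisons through the lymphomas and its calls are descriptions. Of 10 fatty acid oxidation genes none was higher and 3 were lower in LPS than in resting samples, close to the 33% lower over all genes, among them Cpt1a (-2.24), which lets fatty acids into mitochondria, and Slc25a20 (-0.67), a carnitine carrier. In lymphoma against resting samples none of the 10 was called, and against LPS samples only Cpt1a was, as higher (1.54). Of 8 division genes, 7 were higher in LPS and 5 in lymphoma than in resting samples (25.2% and 14.5% over all genes). In lymphoma against LPS samples 3 were lower (8.56% over all genes). Mki67 was not called against resting samples in LPS or lymphoma (limma adjusted p = 0.31 and 0.445). It had 33.5, 128, 98.3 and 259.6 TPM in resting wt, cr, co and hv cells, against 202.1, 145.4, 156.6 and 163.3 TPM in LPS ones. The resting hv value thus lay above every LPS value.

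The gene sums include non-coding transcripts. By GENCODE M21 classes, 13 of the 32 genes had none in any group, and of the other 19 the mean non-coding share was lower in LPS than in resting samples for 18 and higher for 1 (Abcg1), while in lymphoma it was lower than in resting samples for 11 and higher for 8. These shares were not counted over all genes tested, so the counts do not set these genes apart from others. The 4 genes with the largest gaps between LPS and resting samples, picked after their values were seen, are given here. Transcripts not annotated as protein-coding made up 67.5% of Lss TPM on average in lymphoma, 53.1% in LPS and 76.4% in resting samples. For Stard4 these shares were 31.2% in lymphoma, 19.9% in LPS and 55.7% in resting samples. For Mvk they were 9.2% in lymphoma, 5.0% in LPS and 28.0% in resting samples, and for Sqle 12.4% in lymphoma, 7.8% in LPS and 26.9% in resting samples. These differences were not tested. With protein-coding transcripts alone, an alternative added after the data were seen, 17 of 17 sterol genes were higher in LPS than in resting samples, and the log2 fold change of Sqle was 2.99 in place of 2.66. That setting also called Stard4 (log2 0.99), Acly (0.61) and Acaca (0.47) higher in lymphoma than in resting samples (limma adjusted p = 0.0101, 0.0269 and 0.048), and Dhcr7 (log2 -1.05) lower in lymphoma than in LPS samples (0.00375). No source used here gives the strand setting of the quantification, and reads of overlapping or antisense transcripts may be shared.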

How the data were processed

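Total RNA of 27 B-cell samples, without ribosomal RNA, gave strand-marked paired-end libraries, per the labels' protocols. The authors deposited TPM for 88198 transcripts, made with kallisto 0.43 on mm10 (GRCm38), per the submitters' processing notes; no source used here gives the transcript annotation. Since kallisto divides reads between similar transcripts, values of near-identical sequences are uncertain. Transcripts were summed to 30735 genes (740 without a symbol), and all 32 members were found. Depth was estimated from the smallest TPM steps; 60.7 to 75.6% of low values came out whole within 0.02 reads, too few for a count test. Intervals for counting error were therefore not given.

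Groups came from the labels. Tests used log2(TPM + 1), a scale that understates changes of low genes, and took genes that reached 1 TPM in 4 or more samples of the fit. They were run with limma 3.58.1 in R 4.3.3, with eBayes set to trend and robust and Benjamini-Hochberg adjustment over all genes tested. Each comparison was fitted on its own groups, and lines with sites on 18 lymphomas. Sums and figures came from pandas 2.3.3, scipy 1.17.1, matplotlib 3.10.9 and numpy 2.4.6 under Python 3.11.15. The fit was tested on simulated data. The members and lists were chosen with earlier results of these data known. All 32 members are named; of other lists, the 3 called genes with the largest changes in each comparison, of which 1 is not reported here. Transcript classes came from GENCODE M21 (97.6% of transcripts matched), and promoter sequences from RefSeq (GRCm38.p6), where 8 members had no entry. The alternatives were a pseudocount of 0.1, no filter, other scalings, 1 fit over 27 samples, plain limma, left-out libraries, a genotype block, and subsets of lymphomas by site or style of sample name (parts joined or separated).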

Additional observations from a re-analysis of the deposited data

Results flagged for a closer look

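2 of 64 gene and group combinations with 4 samples had a sample far from the other 3, against about 1 in 20 by chance. Mvk was 7.53 TPM in the resting co sample, with 5.55, 5.56 and 5.76 TPM in the other resting samples. Msmo1 was 26.5 TPM in the same sample, with 15.1, 15.6 and 16.7 TPM in the others. The resting co sample was the highest of the 4 resting samples for 12 of 17 sterol genes and for 18 of all 32. The share over all genes tested was not counted. Groups of 19 lymphomas were not examined in this way.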

How the results depend on the processing

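Of the counts by branch, those of sterol genes in LPS against resting (15 to 17 higher) and in lymphoma against LPS samples (13 to 15 lower) stayed within 1.5 times of the reported count in all settings tried, and no gene reversed its called direction. In LPS against resting, median-of-ratios scaling called 4 regulators and carriers higher in place of 2. Leaving out the libraries over 1% Gm10800 gave a branch difference of 1.02 in place of 0.68 (log2). That setting keeps only LPS wt and co, so Fads2 failed the filter on low values and left the fatty acid median. The part of this in the wider difference was not tested. Fads2 failed the filter in the same way whenever 1 LPS sample was left out, and 6 to 7 fatty acid genes were higher when 1 sample at a time was left out. 0 to 1 fatty acid genes were lower when 1 sample at a time was left out (Scd1 without LPS wt, adjusted p = 0.0431, limma).

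The counts in lymphoma against resting moved most. Higher fatty acid genes, 1 as reported, numbered 4 with median-of-ratios scaling and in 1 fit over all 27 samples, 3 with protein-coding transcripts only, and 2 with lung lymphomas only, lymph node lymphomas only or joined sample names only. Higher sterol genes, 2 as reported, numbered 1 after rescaling without Gm10800, Gm20594 and haemoglobin genes and with lymph node lymphomas only, and 0 without the libraries over 1% Gm10800; leaving out 1 resting sample at a time gave 0 to 2. Regulators and carriers, none called as reported, had 1 lower (Abca1) with median-of-ratios scaling, rescaling, 1 fit over 27 samples, lymph node lymphomas only and joined names only, and 1 higher (Stard4) with lung lymphomas only, joined names only and protein-coding transcripts only. Rescaling also called 1 fatty acid gene lower (Scd1). In lymphoma against LPS, leaving out the libraries over 1% Gm10800, which keeps only LPS wt and co, left 0 regulators and carriers higher and 1 lower. Leaving out 1 LPS sample at a time gave 1 to 2 lower. All lymphomas with joined sample names came from lung and all node lymphomas had separated ones, so the subsets by site and by name are not separate checks. The causes were not tested.

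The share of called genes over the whole table that were higher also shifted. For lymphoma against resting it was 45.4%, 53.5% with lung lymphomas only, 52.9% with protein-coding transcripts only and 31.4% with lymph node lymphomas only. For lymphoma against LPS it was 38.1%, 21.5% without the libraries over 1% Gm10800 and 23.3% without LPS cr alone.

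The deviations of the LPS and resting samples of 1 genotype correlated by 0.06 in wt, 0.22 in cr, 0.34 in co and 0.06 in hv, so not every pair passed 0.1 and the genotypes were not treated as pairs. A fit with genotype as a replicate block called 1 fatty acid gene lower (Scd1, log2 -0.52, limma adjusted p = 0.0272) in place of 0, and otherwise gave the same counts within 1.5 times. The fit without both wt samples used limma without trend and robust settings. Depth limits Fads2, which lay under 1 TPM in all resting samples.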
